A study of Homo sapiens with 16 samples.

Results

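The genes that build cholesterol and fatty acids were followed in spheroids of 3 human prostate cancer cell lines, with and without knockdown of MED12, a subunit of the Mediator complex that links transcription factors to RNA polymerase II. The list held 31 genes known to be controlled by the sterol regulatory element-binding proteins (SREBPs), found by gene name among the 62703 genes of the count table. Of these 31 genes, 30 were among the 10566 genes with enough counts to be tested. The sterol branch had 18 listed genes, 17 of them tested, the fatty acid branch had 8, and 5 were SREBP regulators or a sterol carrier, all tested. The remaining gene, CYP51A1, a demethylase of the sterol branch, had 0 or 1 count in each library, and a count of 0 still allows up to 3 counts, which is 3.02 to 6.26 CPM, the count scaled to a common library size, depending on the library. Its exons share sequence on the same strand with 2 other annotated genes, so its level cannot be read from these counts.

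SREBPs are transcription factors made as precursors in the membrane of the endoplasmic reticulum. When sterols are plentiful, INSIG proteins hold the SREBP carrier SCAP there, and when sterols are scarce SCAP escorts the precursor to the Golgi, where proteases release the part that enters the nucleus and raises the genes of lipid synthesis. The product of SREBF2 is known chiefly for the cholesterol genes and that of SREBF1 for the fatty acid genes, and prostate tumours are known for active lipid synthesis.

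The lines were LNCaP, 22Rv1 and PC3. The luminal prostate genes counted here were high in LNCaP and far lower in 22Rv1 and PC3, with values given below. All cells grew in RPMI-1640 with 10% fetal bovine serum and received 25 pmol of an siRNA pool, either against MED12 (siMED12) or non-targeting (siCtrl), and were kept for 3 days in 2D and for 4 days as spheroids, 7 days in all. There were 3 siCtrl libraries for each line, 3 siMED12 libraries for LNCaP and 2 each, numbered 1 and 3, for 22Rv1 and PC3, 16 libraries in all. The labels call these libraries replicates and do not say whether they came from separate cultures, while the study’s methods speak of biological replicates for its experiments in general, so the p-values measure the spread between these libraries, and each line stands for itself only.

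The 16 libraries held 479118 to 993807 counts, with 14365 to 15867 genes detected in each. MED12 itself was weakly counted and passed the test in none of the lines: it measured 9.94, 12.9 and 11.7 CPM in LNCaP siCtrl against 6.99, 6.67 and 10.3 CPM in siMED12 (log2 fold change -0.50 ± 0.46 SE, adjusted p = 0.878 in the quasi-likelihood test of edgeR used throughout), 23.4, 16.7 and 19.2 against 7.42 and 8.98 CPM in 22Rv1 (-1.28 ± 0.46, adjusted p = 0.175), and 28.4, 8.41 and 18.8 against 15.8 and 14.5 CPM in PC3 (-0.22 ± 0.43, adjusted p = 0.987). The siMED12 and siCtrl libraries of PC3 overlapped for MED12, as did those of LNCaP, and in 22Rv1 both siMED12 libraries were the lower. The paper itself reports efficient knockdown of MED12 mRNA and protein after transfection, and efficient knockdown in spheroids. The low counts here do not measure it well. Of 4 luminal markers (KLK3, KLK2, TMPRSS2 and STEAP2), all 4 were counted in every library and their summed level was 4427 to 5365 CPM in LNCaP siCtrl, 104 to 137 CPM in 22Rv1 siCtrl and 47.3 to 63.2 CPM in PC3 siCtrl. It was 2869 to 3682 CPM in LNCaP siMED12 and 73.2 and 87.2 CPM in 22Rv1 siMED12, below every siCtrl library of the line, with 1 of the 4 markers, KLK2, past the threshold, in LNCaP. By group mean KLK3 and KLK2 were lower with siMED12 in both lines, but not every marker was. STEAP2 was at 163 CPM in LNCaP siCtrl and 217 CPM in siMED12. In 22Rv1 siCtrl and siMED12, TMPRSS2 was at 15.6 and 19.3 CPM and STEAP2 at 23.8 and 26.4 CPM. Some libraries stood apart from their group for genes that mark another line. The luminal markers summed to 139 CPM in PC3 siMED12 replicate 3 against 30.3 CPM in replicate 1, and 5 genes marking PC3 (VIM, CAV1, ANXA1, CD44 and AXL) summed to 185 CPM in 22Rv1 siMED12 replicate 3 and 115 CPM in replicate 1, against 89.8 to 100.3 CPM in 22Rv1 siCtrl, with 1 of the 5 past the threshold. CAV1 was higher in both of these siMED12 libraries of 22Rv1, at 35.0 and 60.3 CPM against 13.4 to 16.9 CPM in siCtrl. The PC3 genes also summed to 144 CPM in LNCaP siCtrl replicate 3, against 63.0 and 68.7 CPM in replicates 1 and 2. In LNCaP siMED12 replicates 1, 2 and 3 they summed to 81.1, 40.0 and 109 CPM. VIM made up most of it in LNCaP replicate 3, at 136 CPM in siCtrl and 106 CPM in siMED12. The part of these libraries in the results was not tested. The medians and the values of FASN, SCD, INSIG1 and FADS2 are given with and without replicate 3 of 22Rv1 and PC3 siMED12. Replicate 3 of the LNCaP groups was left out only as a single library.

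The upstream sequences below are shown because SREBPs bind DNA together with NF-Y and SP1, whose boxes are marked in them where present. They belong to the genes of the 2 branches whose levels differed most between the lines, among those with at least 100 bases free of any annotated exon and a start within 300 bases of the annotated main start. Sequences come from RefSeq on GRCh38.p14, on the strand of the gene (minus for all 4), 5′ to 3′, beginning 250 bases before the start. Capitals mark the NF-Y box CCAAT, which reads ATTGG on the other strand, and the SP1 box GGGCGG, which reads CCGCCC. The SP1 box is in all 4 stretches, and the NF-Y box only in those of IDI1 and HMGCS1.
IDI1, chr10:1049120-1049369: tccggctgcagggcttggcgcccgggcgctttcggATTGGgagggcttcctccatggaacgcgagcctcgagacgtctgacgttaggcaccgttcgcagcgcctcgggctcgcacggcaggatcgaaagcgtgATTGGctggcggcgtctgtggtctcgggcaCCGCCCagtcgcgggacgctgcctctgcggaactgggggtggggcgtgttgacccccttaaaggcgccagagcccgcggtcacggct
HMGCS1, chr5:43313513-43313662: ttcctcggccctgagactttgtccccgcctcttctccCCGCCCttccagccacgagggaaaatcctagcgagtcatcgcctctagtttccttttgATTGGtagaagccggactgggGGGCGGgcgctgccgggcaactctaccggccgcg
ACACA, chr17:37406950-37407086: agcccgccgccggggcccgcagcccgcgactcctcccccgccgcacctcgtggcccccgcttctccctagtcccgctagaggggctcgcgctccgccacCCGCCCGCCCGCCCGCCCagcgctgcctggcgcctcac
PMVK, chr1:154936720-154936969: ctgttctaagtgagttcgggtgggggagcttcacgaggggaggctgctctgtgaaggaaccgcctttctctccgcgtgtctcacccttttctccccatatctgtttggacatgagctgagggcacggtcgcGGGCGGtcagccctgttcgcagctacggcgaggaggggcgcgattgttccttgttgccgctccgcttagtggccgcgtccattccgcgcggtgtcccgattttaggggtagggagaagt

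The IDI1 stretch ends at the base before the start and holds CCAAT on the opposite strand at 215 to 211 and at 117 to 113 bases before it, with the SP1 box at 87 to 82. Over the 27 listed genes with an entry in the promoter table, the 250 bases upstream were searched on both strands. CCAAT was found in 18 of them (66.7%, against 34.2% of 19096 promoters of all genes) and GGGCGG in 26 (96.3% against 53.9%). The sterol regulatory element TCACNCCAC was found in 1 (3.7% against 0.89%), that of SREBF2, and the E-box CACGTG in 3 (11.1% against 7.44%), those of SC5D, SCAP and INSIG1. No match of a motif overlapped one of another motif. A match is a string of letters in the window and not a measured binding site.

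The levels in siCtrl spheroids of the 3 lines were compared first. The sterol branch was highest in 22Rv1 and the fatty acid branch in LNCaP, while PC3 was the lowest line for most genes of both. By group mean, 13 of 17 sterol genes were highest in 22Rv1 and 10 of 17 lowest in PC3, and 7 of 8 fatty acid genes were highest in LNCaP and 6 of 8 lowest in PC3. The summed level of the 17 sterol genes was 1582 ± 347 CPM (SD, n = 3) in LNCaP, 2718 ± 563 CPM in 22Rv1 and 1196 ± 295 CPM in PC3. The 8 fatty acid genes summed to 2387 ± 508 CPM (SD, n = 3) in LNCaP, 1466 ± 384 CPM in 22Rv1 and 1247 ± 257 CPM in PC3. A large part of the gap between LNCaP and 22Rv1 in this sum was FADS2. Its siCtrl mean was 794 CPM in LNCaP, 89.25 CPM in 22Rv1 and 459 CPM in PC3. These are bulk spheroids, in which more cells of a kind and more RNA per cell cannot be told apart.

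Against LNCaP, 18 of 30 listed genes differed in 22Rv1 at an adjusted p under 0.05, with 13 higher and 5 lower, where 43.2% of all tested genes differed (22% higher and 21.2% lower). Of the sterol genes 11 of 17 were higher and 1, TM7SF2, was lower, with a median log2 difference of 0.74. Of the fatty acid genes none was higher and 3 of 8 were lower, with a median of -0.41. The median over all tested genes was 0.00. The branches thus stood on opposite sides of it in this pair of lines.

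In PC3 against LNCaP 18 of 30 differed, 4 higher and 14 lower, against 54.7% of all genes (29.2% higher and 25.5% lower). The fatty acid branch was lower in 6 of 8 genes and higher in none, with a median log2 difference of -1.0, and the sterol branch was mixed, with 4 genes higher and 5 lower of 17 (median -0.35). PC3 against 22Rv1 gave 22 of 30, 2 higher and 20 lower, where 54.9% of all genes differed (28.7% higher and 26.1% lower). Here 13 of 17 sterol genes and 4 of 8 fatty acid genes were lower, 1 of each was higher, and the medians were -0.93 and -0.67. The median over all genes was 0.05 for PC3 against LNCaP and 0.01 for PC3 against 22Rv1. The 3 comparisons share their siCtrl libraries and are not independent of each other. The share of all tested genes whose siCtrl groups did not overlap was 51.2%, 60.2% and 58.9% in the same order, which is the background for the statements on overlap that follow.

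**Figure D1:**
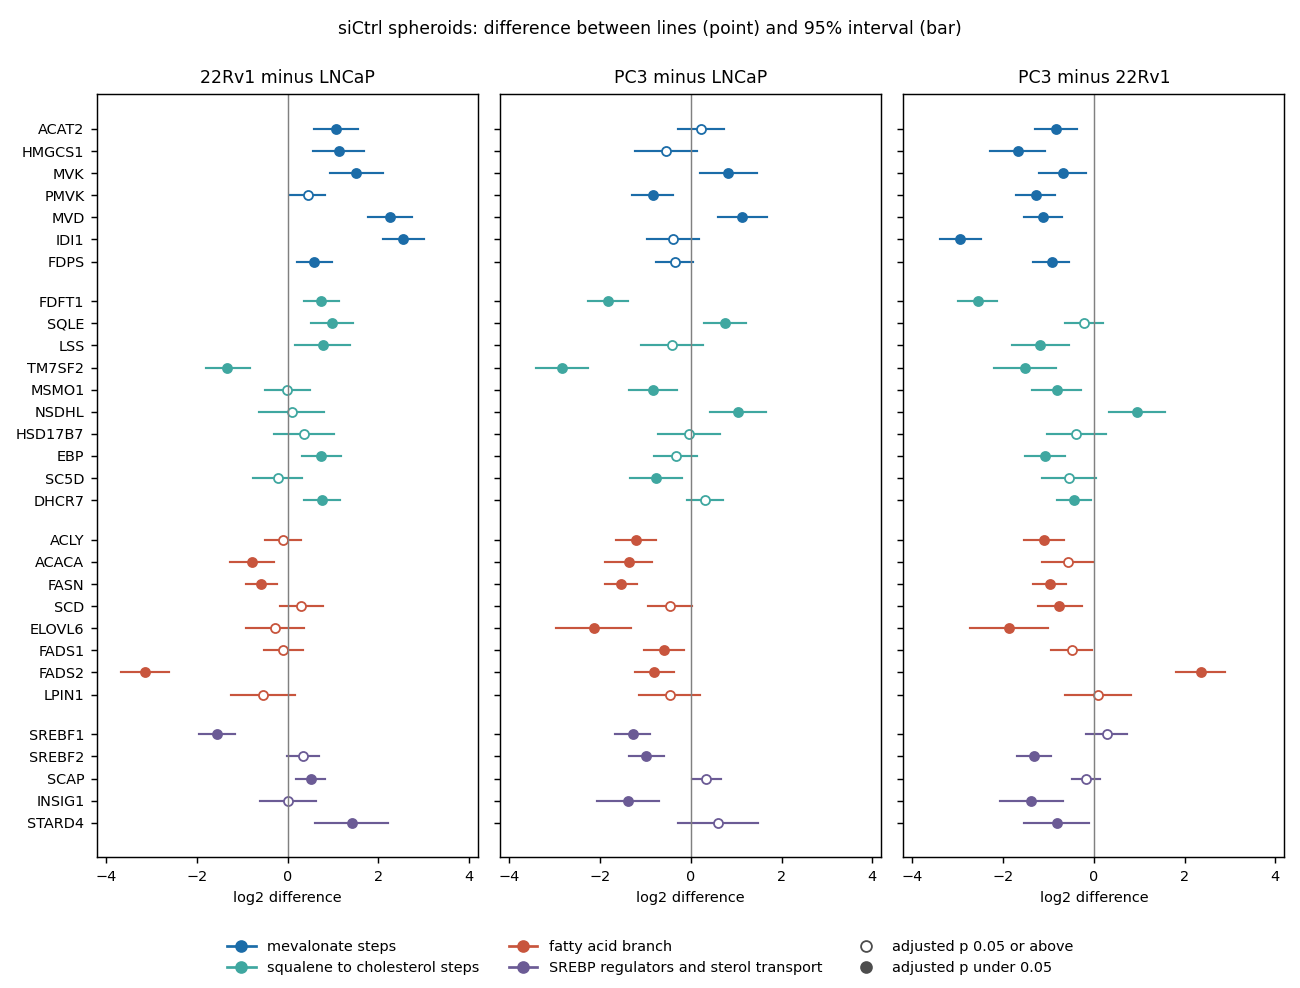
Log2 difference between lines in siCtrl spheroids for the 30 tested genes, in 3 panels, with points for the fitted difference and bars for its 95% interval. Filled points have an adjusted p under 0.05. All 7 mevalonate genes lie left of 0 in the PC3 minus 22Rv1 panel, and FADS2 stands at -3.15 and 2.36 in the panels with 22Rv1.

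The mevalonate steps turn acetyl-CoA into the isoprene units of sterols, and 6 of their 7 genes were higher in 22Rv1 than in LNCaP and 7 of 7 were lower in PC3 than in 22Rv1. IDI1, which interconverts the isoprene units and whose upstream sequence is printed above, measured 74.6, 28.6 and 62.5 CPM in the LNCaP siCtrl libraries, 259, 328 and 384 CPM in 22Rv1 and 46.4, 31.5 and 50.6 CPM in PC3. Every 22Rv1 library was above every library of the other lines, and LNCaP and PC3 overlapped. The log2 difference was 2.55 ± 0.22 (SE, 5.85-fold, adjusted p = 3.74e-11) for 22Rv1 against LNCaP and -2.94 ± 0.23 (7.67-fold lower, adjusted p = 1.3e-12) for PC3 against 22Rv1.

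MVD, which makes the first isoprene unit, measured 33.1, 21.5 and 22.3 CPM in LNCaP, 100.2, 135 and 127 CPM in 22Rv1 and 72.2, 45.2 and 49.1 CPM in PC3. The 3 lines did not overlap. The order was 22Rv1, PC3, LNCaP, with 22Rv1 above LNCaP by 2.26 ± 0.23 (adjusted p = 2.17e-09) and PC3 above LNCaP by 1.13 ± 0.26 (adjusted p = 0.000461) on the log2 scale. HMGCS1, a synthase of the mevalonate steps, measured 76.2, 31.5 and 44.5 CPM in LNCaP, 100.2, 114 and 110.3 CPM in 22Rv1 and 58.1, 19.98 and 24.6 CPM in PC3. The 22Rv1 libraries were the highest 3, and those of LNCaP and PC3 overlapped, with no difference past the threshold between them (-0.55 ± 0.33, adjusted p = 0.166). PC3 was 3.19-fold below 22Rv1 (log2 difference -1.67 ± 0.29, adjusted p = 1.49e-05).

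PMVK, a kinase of the pathway, measured 61.3, 67.3 and 64.7 CPM in LNCaP, 91.1, 98.6 and 74.4 CPM in 22Rv1 and 49.0, 30.5 and 28.9 CPM in PC3. PC3 lay below both other lines without overlap (PC3 against 22Rv1 -1.28 ± 0.21, adjusted p = 5.64e-06), and 22Rv1 against LNCaP did not overlap but missed the threshold (0.44 ± 0.19, adjusted p = 0.0668). MVK, the kinase before it, measured 44.7, 21.5 and 26.5 CPM in LNCaP, 67.7, 65.2 and 122 CPM in 22Rv1 and 50.3, 50.5 and 60.7 CPM in PC3. Its 22Rv1 libraries were above all the others, by 1.51 ± 0.29 on the log2 scale against LNCaP (adjusted p = 6.5e-05). ACAT2, which joins acetyl-CoA units, and FDPS, which makes farnesyl diphosphate, were likewise higher in 22Rv1 than in LNCaP, by 1.06 ± 0.23 and 0.59 ± 0.19.

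Among the 10 tested genes from squalene to cholesterol, 5 were higher and 1 lower in 22Rv1 than in LNCaP. FDFT1, squalene synthase, the first enzyme committed to sterols, measured 422, 251 and 326 CPM in LNCaP, 446, 499.8 and 713 CPM in 22Rv1 and 124, 69.4 and 91.0 CPM in PC3. No lines overlapped, and PC3 was lowest, 5.9-fold below 22Rv1 (log2 difference -2.56 ± 0.21, adjusted p = 5.29e-12) and 3.53-fold below LNCaP (-1.82 ± 0.22, adjusted p = 1.45e-08). SQLE, the next enzyme, measured 81.2, 50.1 and 76.3 CPM in LNCaP, 103, 129 and 177 CPM in 22Rv1 and 151, 96.7 and 107 CPM in PC3. PC3 was not low for SQLE: it overlapped 22Rv1 (-0.22 ± 0.21, adjusted p = 0.392) and lay above LNCaP by 0.76 ± 0.23 (adjusted p = 0.00526). These neighbouring steps thus had different orders of the lines.

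TM7SF2, a sterol reductase, ran the other way from most of the branch. It measured 124, 125 and 105 CPM in LNCaP, 41.6, 45.1 and 52.6 CPM in 22Rv1 and 29.7, 9.46 and 10.1 CPM in PC3. LNCaP was highest without overlap, 2.51-fold above 22Rv1 (adjusted p = 3.07e-05) and 7.18-fold above PC3 (adjusted p = 4.22e-10), though the exons of TM7SF2 overlap those of VPS51 on the same strand, and how such reads were assigned is not stated. NSDHL, a demethylation enzyme on the X chromosome, was the only tested gene of the list with PC3 above both other lines at the threshold, by 1.04 ± 0.30 against LNCaP and 0.95 ± 0.30 against 22Rv1, whose libraries it overlapped. DHCR7, the reductase of the last step, was higher in 22Rv1 than in LNCaP by 0.76 ± 0.19 (adjusted p = 0.00189). HSD17B7 passed the threshold between no lines, and, like CYP51A1, IDI1 (3), FDPS (8) and SCD (1), it has pseudogenes in the annotation (3), whose part in the counts was not tested.

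The fatty acid branch starts from ACLY, which supplies cytosolic acetyl-CoA, and ACACA, which makes malonyl-CoA. ACLY measured 187, 189 and 182 CPM in LNCaP, 134, 172 and 213 CPM in 22Rv1 and 91.6, 76.7 and 73.7 CPM in PC3. LNCaP and 22Rv1 overlapped and PC3 was below both, by -1.20 ± 0.22 against LNCaP (adjusted p = 1.87e-05). ACACA measured 76.2, 53.0 and 73.1 CPM in LNCaP, 28.6, 33.4 and 53.9 CPM in 22Rv1 and 32.3, 22.1 and 24.6 CPM in PC3. The highest 22Rv1 library overlapped LNCaP, and PC3 was 2.58-fold below LNCaP (log2 difference -1.37 ± 0.25, adjusted p = 2.48e-05).

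FASN, fatty acid synthase, measured 749, 539.9 and 719 CPM in LNCaP, 331, 486 and 532 CPM in 22Rv1 and 245, 216 and 228 CPM in PC3. The lines were in the order LNCaP, 22Rv1, PC3 without overlap. PC3 was 2.92-fold below LNCaP (-1.54 ± 0.17, adjusted p = 5.36e-09) and 22Rv1 1.49-fold below it (-0.58 ± 0.17, adjusted p = 0.00543). SCD, the desaturase that makes monounsaturated fatty acids, measured 379, 281 and 421 CPM in LNCaP, 284, 428 and 619.8 CPM in 22Rv1 and 341, 216 and 234 CPM in PC3. All 3 lines overlapped for SCD. It was the fatty acid gene whose mean was highest in 22Rv1, and only PC3 against 22Rv1 passed the threshold (-0.76 ± 0.24, adjusted p = 0.00774). ELOVL6, an elongase, was low in PC3 alone, at 8.67 to 12.6 CPM against 28.4 to 55.1 CPM in the other lines, with -2.14 ± 0.40 against LNCaP (adjusted p = 3.83e-05).

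FADS1 and FADS2 encode the desaturases of polyunsaturated fatty acids and lie side by side on chromosome 11, on opposite strands, with main starts 11297 bases apart. FADS2 measured 968, 528 and 887 CPM in LNCaP, 66.4, 93.6 and 108 CPM in 22Rv1 and 610.2, 319 and 448 CPM in PC3. The 22Rv1 libraries were far below all the others, 8.9-fold below LNCaP (log2 difference -3.15 ± 0.26, adjusted p = 1.32e-11). PC3 overlapped LNCaP, was 1.74-fold below it (adjusted p = 0.00233), and was 5.12-fold above 22Rv1 (2.36 ± 0.26, adjusted p = 4.96e-09). FADS1, in contrast, measured 239, 150.4 and 258 CPM in LNCaP, 185, 197 and 225 CPM in 22Rv1 and 157, 141 and 133 CPM in PC3. LNCaP and 22Rv1 overlapped for FADS1, with a log2 difference of -0.10 ± 0.21 (95% interval -0.53 to 0.33). The annotated exons of these genes overlap on opposite strands and those of FADS2 also overlap FEN1 on the same strand, so some counts of this locus are uncertain. LPIN1, a phosphatidate phosphatase, passed the threshold between no lines, with 71.2, 22.9 and 50.9 CPM in LNCaP, 19.5, 23.4 and 52.6 CPM in 22Rv1 and 47.7, 34.7 and 20.2 CPM in PC3.

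The SREBP genes themselves differed between the lines. SREBF1 measured 154, 133 and 189 CPM in LNCaP, 46.8, 40.1 and 73.1 CPM in 22Rv1 and 73.5, 62.0 and 62.1 CPM in PC3. LNCaP was above both others without overlap, 2.95-fold above 22Rv1 (adjusted p = 9.43e-08) and 2.43-fold above PC3 (adjusted p = 6.73e-07), and the latter lines overlapped. SREBF2 measured 166, 140.3 and 147 CPM in LNCaP, 138, 212 and 222 CPM in 22Rv1 and 81.3, 72.5 and 75.1 CPM in PC3. It was lowest in PC3 without overlap, 2.49-fold below 22Rv1 (adjusted p = 3.09e-07), and LNCaP and 22Rv1 overlapped. INSIG1, the sterol-responsive anchor, measured 343, 153 and 241 CPM in LNCaP, 124, 251 and 358 CPM in 22Rv1 and 146, 63.1 and 75.1 CPM in PC3. PC3 was 2.59-fold below LNCaP (adjusted p = 0.000888), while LNCaP and 22Rv1 differed by 0.00 ± 0.30 on the log2 scale. SCAP and STARD4, a sterol carrier, were higher in 22Rv1 than in LNCaP, by 0.51 ± 0.16 and 1.42 ± 0.39.

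**Figure D2:**
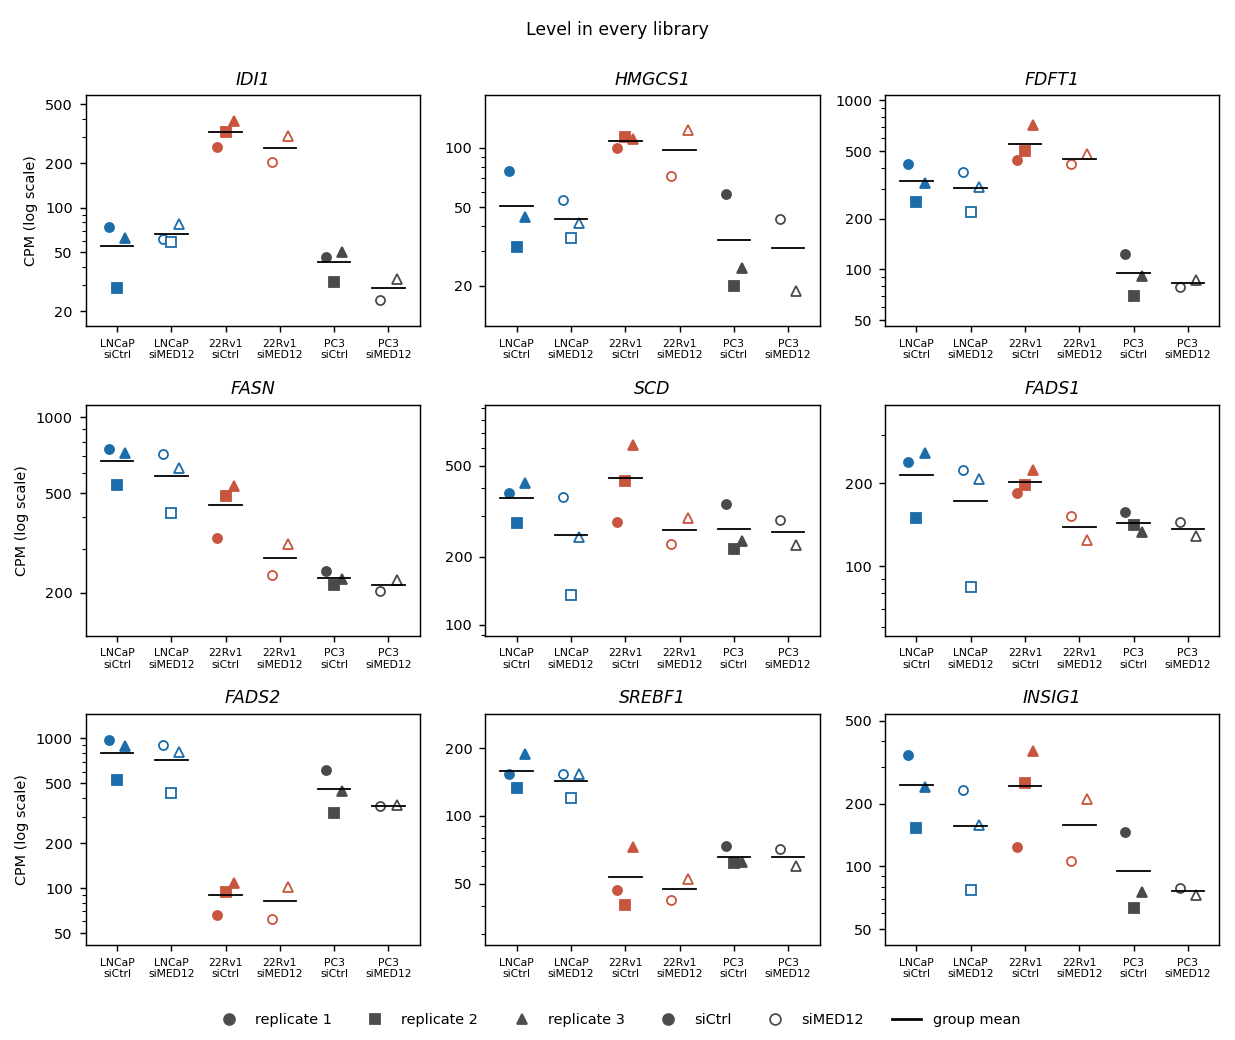
Level of 9 genes in every library, in CPM on a log axis, with 1 panel a gene. Colours stand for the lines, filled symbols for siCtrl, open symbols for siMED12, symbol shapes for the replicate number and bars for the group mean. IDI1 and FADS2 separate 22Rv1 from the other lines in opposite directions, and the siMED12 libraries of 22Rv1 lie below its siCtrl libraries for FASN and FADS1.

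Counted over genes, 11 of the 30 were above both other lines in 22Rv1, 10 of them of the sterol branch and none of the fatty acid branch. There were 5 above both others in LNCaP, namely TM7SF2, ACACA, FASN, FADS2 and SREBF1, and 28 of 30 differed between some pair of lines. The share of all tested genes with these patterns was not counted. In each single comparison 43.2% to 54.9% of all genes differed, so these counts describe the list and do not set it apart. Of the 58 calls in the 3 comparisons, 39 were made again whichever of the 16 libraries was left out. The least stable was STARD4 for PC3 against 22Rv1 (adjusted p = 0.0497), lost in 8 of the 16 leave-outs. LSS for 22Rv1 against LNCaP and FADS1 for PC3 against LNCaP were lost in 4 each. DHCR7 for PC3 against 22Rv1 was lost in 3, without 22Rv1 siCtrl replicate 2 or 3 or PC3 siCtrl replicate 2, and MVK in 3 for each of the comparisons with PC3. MSMO1 for PC3 against 22Rv1 and SC5D for PC3 against LNCaP were lost in 2. A further 11 calls, among them FASN and ACACA in 22Rv1 against LNCaP without 22Rv1 siCtrl replicate 1 (adjusted p = 0.0696 and 0.0665), SCD in PC3 against 22Rv1 without 22Rv1 siCtrl replicate 3 (0.136) and NSDHL in PC3 against 22Rv1 without PC3 siCtrl replicate 1 (0.0739), were lost in 1.

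The effect of siMED12 was then asked within each line. With group means only, none of the 30 genes passed the threshold in LNCaP, 22Rv1 or PC3, nor for the mean of the 3 effects, where 0.416%, 1.84%, 0% and 0.265% of all tested genes did. At an unadjusted p under 0.05 there were 2 of the 30 in LNCaP, 5 in 22Rv1, 1 in PC3 and 4 for the mean, against 7.34%, 11.7%, 4.99% and 8.52% of all genes. DESeq2 and limma on log2 CPM called none of the 30 in any of these. A block for the replicate number, taken up at the end, called SCD and INSIG1 lower in LNCaP and FASN and SCD in 22Rv1. It also called FADS2 lower in PC3, and FASN, SCD and INSIG1 for the mean effect. With all genes that had a count tested in place of the expression filter, SCD and INSIG1 were called lower in LNCaP and for the mean effect. In 22Rv1 that fit called FASN, SCD and INSIG1 lower, so the absence of calls depends on the fit. The share of all genes called in these alternative fits is not given here. The median log2 fold change of the sterol branch was 0.04 in LNCaP, -0.10 in 22Rv1 and -0.23 in PC3, and that of the fatty acid branch -0.22, -0.34 and -0.05, with a median over all genes of 0.00, 0.01 and -0.04. The 95% intervals of single genes, not adjusted for the number of genes tested, reached a median of 0.49, 0.53 and 0.61 to each side. Changes smaller than these could not be told from 0. Larger ones could still miss the adjusted threshold, as FASN at -0.71 and SCD at -0.77 did in 22Rv1. Without replicate 3 of 22Rv1 and PC3 siMED12, each line keeps 1 siMED12 library. The sterol and fatty acid medians were then -0.36 and -0.46 in 22Rv1 and -0.19 and 0.08 in PC3.

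Fold changes below 0 were found for 18 of 30 genes in LNCaP, 20 in 22Rv1 and 23 in PC3, where 50.4%, 48.7% and 55.6% of all genes were below 0. The libraries of siMED12 and siCtrl did not overlap for 3 of 30 genes in LNCaP (HSD17B7, SREBF2 and STARD4, all lower), against 12.6% of all genes. In 22Rv1 they did not overlap for FASN and FADS1, which were lower, and PMVK, which was higher, against 26.6% of all genes. In PC3 only NSDHL did not overlap, at 21.1 and 20.7 CPM against 50.3, 25.2 and 40.5 CPM, where 20.7% of all genes did not. The counts below 0 were above the share over all genes in each line, and the counts without overlap were not. Listed genes moved together between libraries, as given below, so the genes in such a count are not independent and its excess was not tested.

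FASN in 22Rv1 came closest to the threshold. It measured 236 and 313 CPM in siMED12 against 331, 486 and 532 CPM in siCtrl. Both siMED12 libraries were below the lowest siCtrl library, and the log2 fold change was -0.71 ± 0.20 (39.1% lower, 95% interval -1.11 to -0.32) with an adjusted p of 0.0506. With a call so near the threshold, the libraries and genes entered moved it across: it was 0.00187 with all genes that had a count. It was 0.0092 without 22Rv1 siCtrl replicate 1, and also fell under 0.05 on leaving out LNCaP siCtrl replicate 2 (0.046), LNCaP siMED12 replicate 1 (0.0403), LNCaP siMED12 replicate 2 (0.0192) or PC3 siCtrl replicate 1 (0.039), with fold changes of -0.71 or -0.72, while it was 0.509 without 22Rv1 siMED12 replicate 1. Without both libraries that held genes of another line, the log2 fold change was -0.93 and the adjusted p 0.0761, with 1 siMED12 library of 22Rv1 assumed to vary as the other groups do.

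FASN measured 712, 418 and 627 CPM in LNCaP siMED12, within the range of the siCtrl libraries but for the lowest, and 203 and 226 CPM in PC3. The fold changes there were -0.19 ± 0.16 and -0.10 ± 0.21. The difference between the effects in 22Rv1 and LNCaP was -0.52 ± 0.25 with an adjusted p of 0.599, so the effect was not shown to differ between the lines.

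SCD, the next enzyme in use of the FASN product, measured 366, 135 and 243 CPM in LNCaP siMED12 and 228 and 295 CPM in 22Rv1 siMED12. In both lines the siMED12 libraries overlapped siCtrl. The log2 fold changes were -0.55 ± 0.24 (adjusted p = 0.627) in LNCaP, -0.77 ± 0.27 (adjusted p = 0.163) in 22Rv1 and -0.01 ± 0.28 in PC3, where siMED12 measured 290.1 and 224 CPM. Without 22Rv1 siCtrl replicate 1 the 22Rv1 value was -1.02 and passed the threshold (adjusted p = 0.0427). FADS1 in 22Rv1 measured 153 and 124 CPM in siMED12, below every siCtrl library, with -0.54 ± 0.24 (adjusted p = 0.359), and FADS2 measured 62.6 and 101 CPM, with -0.14 ± 0.35. Without replicate 3 of 22Rv1 and PC3 siMED12, SCD was at -0.96 in 22Rv1 and 0.14 in PC3, and FADS2 at -0.51 in 22Rv1 and -0.38 in PC3.

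LPIN1 had values of opposite sign. It measured 32.2, 30.7 and 26.4 CPM in LNCaP siMED12, 15.9 and 26.9 CPM in 22Rv1 and 68.6 and 39.4 CPM in PC3. These libraries overlapped siCtrl in every line, and the log2 fold changes were -0.69 ± 0.34, -0.63 ± 0.44 and 0.70 ± 0.37. The difference between PC3 and LNCaP was 1.39 ± 0.51 (unadjusted p = 0.00999, adjusted p = 0.863), and none of the 30 genes passed the threshold for a difference between lines, where 0.189% (22Rv1 minus LNCaP), 0.0284% (PC3 minus LNCaP) and 0.0946% (PC3 minus 22Rv1) of all genes did. At an unadjusted p under 0.05 there were 2, 2 and 3 of the 30, against 8.28%, 5.02% and 9.16% of all genes in the same order.

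**Figure D3:**
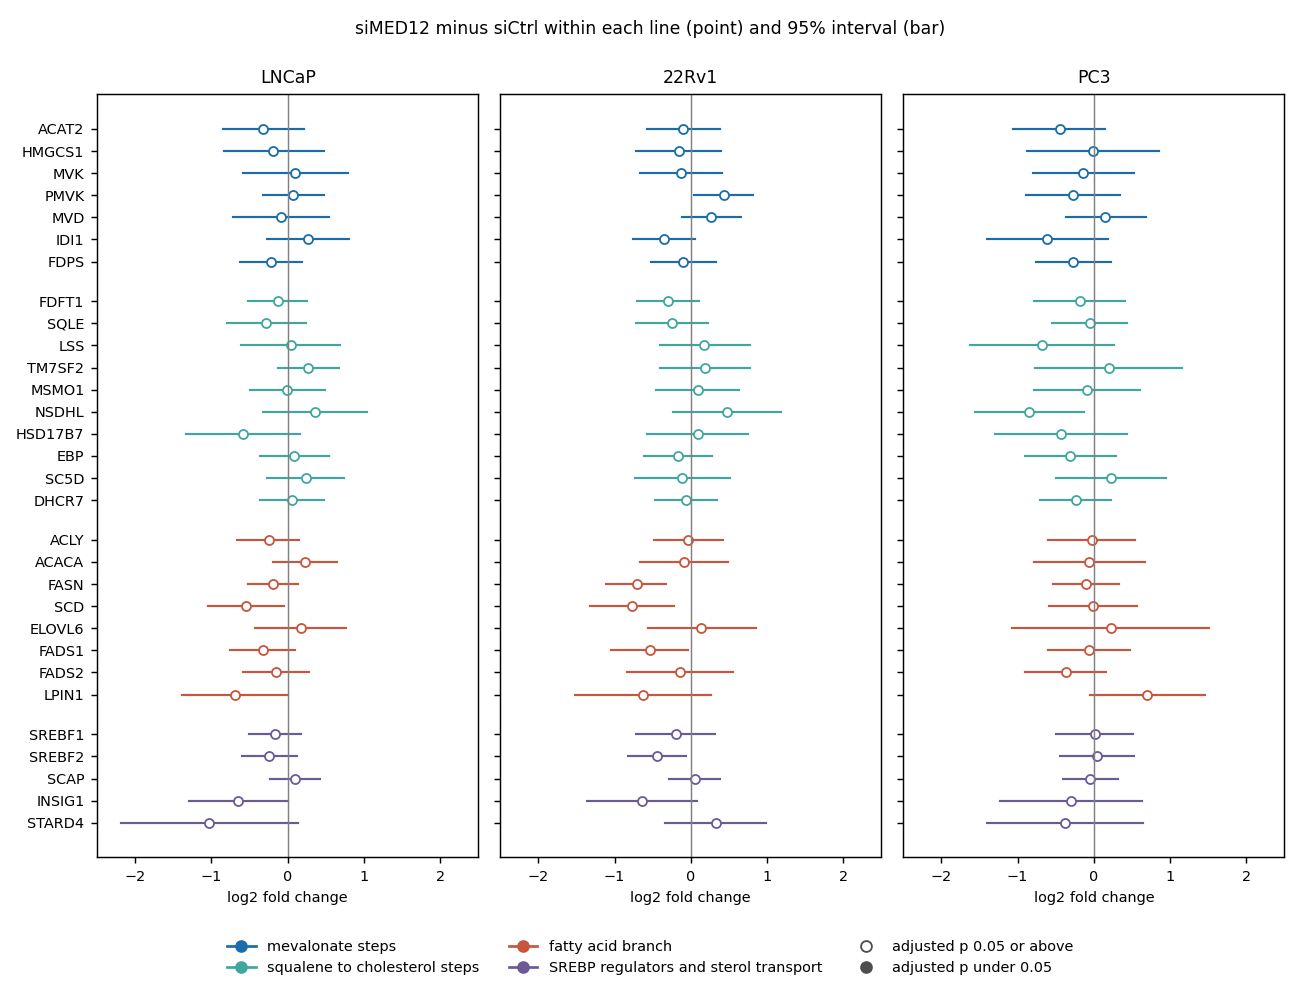
Log2 fold change of siMED12 against siCtrl for the 30 tested genes in the 3 lines, with points for the fitted value and bars for the 95% interval. No point is filled, since none had an adjusted p under 0.05, and FASN and SCD in 22Rv1 are the lowest of their branch at -0.71 and -0.77.

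Of the sterol genes, IDI1 measured 61.5, 58.7 and 78.2 CPM in LNCaP siMED12, 203 and 308 CPM in 22Rv1 and 23.7 and 33.2 CPM in PC3. The libraries overlapped siCtrl in each line, and the log2 fold changes were 0.27 ± 0.26, -0.35 ± 0.20 and -0.61 ± 0.39. HMGCS1 measured 54.6, 34.7 and 41.4 CPM in LNCaP siMED12, 72.1 and 123.1 CPM in 22Rv1 and 43.5 and 18.7 CPM in PC3. Its fold changes were -0.19 ± 0.32, -0.16 ± 0.27 and -0.01 ± 0.43, and all overlapped siCtrl. SQLE measured 62.9, 46.7 and 60.9 CPM, 93.3 and 139 CPM, and 133 and 87.1 CPM in the same order, with -0.28 ± 0.25, -0.25 ± 0.23 and -0.05 ± 0.24. No sterol gene had an adjusted p under 0.34 in a single line.

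Of the regulators, INSIG1 measured 234, 77.4 and 158 CPM in LNCaP siMED12, 106 and 212 CPM in 22Rv1 and 79.1 and 72.6 CPM in PC3. The siMED12 libraries overlapped siCtrl in all lines, with log2 fold changes of -0.65 ± 0.32, -0.64 ± 0.35 and -0.30 ± 0.46. Without the same replicates 3 the values were -1.20 (adjusted p = 0.294) in 22Rv1 and -0.25 in PC3. SREBF1 measured 154, 120.1 and 153 CPM, 42.4 and 52.6 CPM, and 71.2 and 60.1 CPM in the same order, with fold changes of -0.17 ± 0.17, -0.20 ± 0.26 and 0.02 ± 0.25. SREBF2 measured 133, 125 and 124 CPM in LNCaP siMED12, all below siCtrl, 123 and 159 CPM in 22Rv1 and 94.96 and 56.0 CPM in PC3, with -0.24 ± 0.17, -0.44 ± 0.19 and 0.04 ± 0.24. The mean effect over the lines was -0.53 ± 0.22 for INSIG1, -0.44 ± 0.15 for SCD and -0.34 ± 0.11 for FASN, with adjusted p-values of 0.468, 0.329 and 0.301 in the fit with group means only. With all genes that had a count, those of INSIG1 and SCD were 0.00147 and 0.000984. A block for the replicate number gave -0.6, -0.49 and -0.33 for INSIG1, SCD and FASN (adjusted p = 0.000606, 0.002 and 0.0142). The labels do not say that these numbers pair the libraries.

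The spread between libraries of a group was as large as these effects, and many listed genes moved together in it. In 22Rv1 siCtrl, 16 of 17 sterol genes and 8 of 8 fatty acid genes were below their group mean in replicate 1, and 1 of 17 and none of 8 in replicate 3, where 48% and 48.4% of all tested genes were below. The median log2 deviations of the sterol genes were -0.28, 0.00 and 0.36 in replicates 1, 2 and 3, and in 22Rv1 siMED12 -0.27 and 0.27 in replicates 1 and 3. In PC3 siCtrl they were 0.39, -0.36 and -0.02, with 17 of 17 sterol genes below the mean in replicate 2 (48% of all genes). In LNCaP siCtrl they were 0.28, -0.31 and -0.02, and in LNCaP siMED12 0.20, -0.25 and 0.10. Libraries of the same number thus deviated the same way in 22Rv1, and in replicates 1 and 2 of LNCaP. The fatty acid genes of LNCaP siMED12 deviated by 0.45, -0.61 and 0.11, the widest spread, with replicate 2 at 1313 CPM summed against 2607 CPM in replicate 1. Deviations within a group sum to 0, so the libraries of a group are not independent of each other here. The median deviation of all tested genes was between 0.00 and 0.01 in each of the libraries named.

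**Figure D4:**
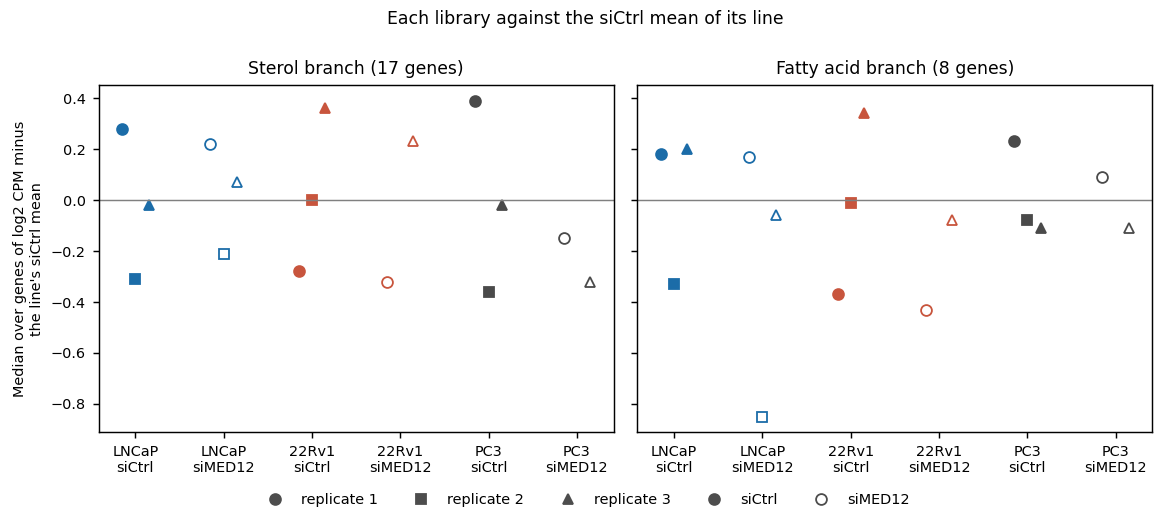
Median over the 17 sterol genes and the 8 fatty acid genes of log2 CPM minus the siCtrl mean of the line, for each library. Filled symbols are siCtrl, open symbols siMED12 and shapes give the replicate number. The 3 siCtrl libraries of PC3 run from -0.36 to 0.39 for the sterol genes, and LNCaP siMED12 replicate 2 is lowest for the fatty acid genes at -0.85.

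The wider pathway was described with 5 further lists. These were SREBP processing (7 genes tested), sterol uptake, transport and efflux (12), the branches of the mevalonate pathway outside sterols (8), fatty acid supply and use (12) and fatty acid oxidation (10). With siMED12, none of their genes passed the threshold in any line or for the mean effect, and the medians in LNCaP, 22Rv1 and PC3 were 0.12, 0.36 and 0.01 for SREBP processing, -0.13, 0.02 and 0.04 for sterol transport, 0.07, 0.05 and 0.02 for the other mevalonate branches, -0.24, 0.09 and -0.16 for fatty acid supply and 0.10, 0.30 and 0.02 for oxidation.

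Between the siCtrl lines, 11 of 12 genes of fatty acid supply and use passed the threshold for PC3 against LNCaP, 6 higher and 5 lower, and 8 of 10 oxidation genes, 1 higher and 7 lower, where 54.7% of all genes did. For 22Rv1 against LNCaP the counts were 8 of 12 and 4 of 10, against 43.2% of all genes, and for PC3 against 22Rv1 they were 8 of 12 and 8 of 10, against 54.9%. ACSL1, which activates fatty acids, was at 226 ± 58.1 CPM (SD, n = 3) in LNCaP, 22.6 ± 8.75 CPM in 22Rv1 and 38.7 ± 6.92 CPM in PC3, 10.1-fold lower in 22Rv1 than in LNCaP (adjusted p = 5.08e-12). ME1, a source of NADPH for synthesis, was at 99.4 ± 11.8, 21.0 ± 5.00 and 143 ± 20.8 CPM in the same order, and 6.87-fold higher in PC3 than in 22Rv1 (adjusted p = 1.2e-10). DECR1, needed to oxidise polyunsaturated fatty acids, was 5.27-fold higher in PC3 than in LNCaP (adjusted p = 4.46e-11). Of the processing list, SEC24C, part of the coat that carries SCAP to the Golgi, was 5.29-fold higher in PC3 than in LNCaP (adjusted p = 1.24e-14).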

How the data were processed

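Libraries were prepared by BRB-seq, which counts 3′ ends of polyadenylated RNA, so a count does not scale with transcript length. The authors used STARsolo for alignment and counting, with GRCh38.p13 and the annotation of Gencode 43, and whether molecular identifiers were collapsed and the strand setting of the counting are not given in the sources used here. The deposited count table holds raw counts. The deposited log2 CPM table was recomputed from them with edgeR (prior count 2) to within 5.0e-14 and was used as a check and for the limma alternative.

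Levels are CPM scaled by trimmed mean of M values (TMM) over the tested genes, and SD is the standard deviation of the libraries of a group. The edgeR expression filter (count of at least 10, total of at least 15) kept the tested genes. Quasi-likelihood models (edgeR 4.0.16, R 4.3.3) took in all 16 libraries with 6 group means, and tests were 2-sided, adjusted by Benjamini-Hochberg over the 10566 genes of a contrast, with a threshold of 0.05. The common biological coefficient of variation was 0.125. Standard errors (SE) are the fold change over the root of the F statistic. The script was tested on simulated data. Libraries of a group differed beyond counting noise (chi-square per degree of freedom 1.6 to 3.43), so none was a copy. Alternatives were DESeq2 1.42.0, limma 3.58.1, other scaling and filters, a replicate block and leaving out libraries.

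The members and lists were chosen with earlier results of these data known. Values in every library are given for the 6 listed genes with the smallest p in each comparison of lines and for HMGCS1, IDI1, SQLE, INSIG1, SREBF1, SREBF2, FASN, SCD, FADS2 and LPIN1; of the wider lists at most 4 genes each were named, by smallest p. FADS1, PMVK and NSDHL in the siMED12 comparisons were added after their values were seen. Annotation was Gencode 44 on GRCh38, matched for 31 of 31 genes, and promoter sequences were matched for 27 of them. A gene of the SREBP processing list and a luminal marker are not reported here and are left out of the counts and sums of those lists.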

Additional observations from a re-analysis of the deposited data

How the results depend on the processing

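The counts of listed genes that differed between the siCtrl lines stayed within 1.5 times under every alternative, with 14 to 20 for 22Rv1 against LNCaP, 15 to 22 for PC3 against LNCaP and 15 to 23 for PC3 against 22Rv1. Leaving out single libraries gave 16 to 18, 15 to 21 and 17 to 23. No called difference reversed its direction. With every gene that had a count tested in place of the expression filter, siMED12 lowered 2 listed genes in LNCaP (SCD and INSIG1), 3 in 22Rv1 (FASN, SCD and INSIG1) and 2 for the mean effect (SCD and INSIG1). The share of all genes called in that fit is not given here, and the cause was not tested. Leaving out single libraries gave 0 to 2 calls in 22Rv1 (FASN alone in 4 cases, FASN and SCD without 22Rv1 siCtrl replicate 1), and leaving out LNCaP replicate 2 of both groups, an alternative chosen after seeing the data, gave 1. The older edgeR test, also added after seeing the data, changed no siMED12 call. The median of the sterol branch in PC3 ran from -0.39 (without siCtrl replicate 2) to 0.00 (without siCtrl replicate 1), and that of the fatty acid branch in 22Rv1 from -0.46 to 0.00 (without siCtrl replicate 3). The sterol median ran from -0.36 to 0.24 in 22Rv1 and from -0.09 to 0.18 in LNCaP, and the fatty acid median from -0.45 to 0.00 in LNCaP and from -0.11 to 0.09 in PC3, and 3 of these 4 changed sign on leaving out a library. The depth of 479118 to 993807 counts a library leaves weakly counted genes such as STARD4, with 1 to 28 counts, and MED12 with wide intervals.

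Replicate numbers are shared between groups, but the deviations of same-numbered libraries from their group means correlated at 0.127, 0.087 and 0.116 in LNCaP, 0.161 and 0.214 in 22Rv1 and 0.073 and 0.052 in PC3, so the numbers were not taken to pair the libraries. In each line every siMED12 library correlated best with the siCtrl library of its own number, a hint from the data and not the design; with 2 siMED12 libraries in 22Rv1 and PC3, their values mirror each other. With a replicate block the calls were 2 in LNCaP (SCD and INSIG1), 2 in 22Rv1 (FASN and SCD), 1 in PC3 (FADS2) and 3 for the mean effect (FASN, SCD and INSIG1, at adjusted p-values of 0.0142, 0.002 and 0.000606), all lower with siMED12, and the sterol median in PC3 was -0.40. The share of all genes called with the block is not given here. Read by number without a test, a count made after seeing the data, siMED12 was the lower library in 7 of 7 same-numbered pairs for 9 of the 30 genes (30%, against 1.93% of all tested genes), namely FDPS, FDFT1, SQLE, FASN, SCD, FADS1, FADS2, SREBF1 and INSIG1, which move together between libraries and are not independent.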
